A study of Mus musculus with 12 samples.

Results

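The comparison set mouse melanoma cells labelled Gli2CA, which carry an active form of the transcription factor Gli2, beside the non-targeted control (NTC) of the same experiment. It used 6 of the 12 libraries of the series, 3 in each of these groups, and the 10784 of 54532 genes that reached at least 1 FPKM (reads or fragments scaled to gene length and to the library's total) in at least 3 of the 6. Both groups were melanoma cell lines of 1 shared genotype that includes BRAFV600E, so the controls also carried the activated BRAF kinase. Both grew in DMEM with 10% serum and puromycin at 1 ug/mL, and poly(A) RNA was sequenced. The other 6 libraries belong to a knockout experiment in Cas9 cells, whose medium also held blasticidin, and they entered 1 alternative fit only. The labels do not give the sequence or promoter of the active Gli2, whether a line was 1 clone, or whether replicates are separate cultures. If they are not, the p-values reflect technical spread alone.

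Hedgehog ligands bind the receptor Patched1 (Ptch1), which frees Smoothened (Smo) and lets GLI transcription factors escape processing into repressors. Gli2 is the main activator among them, Gli1 is both a target and an amplifier, and Gli3 acts mostly as a repressor. Ptch1, Gli1 and Hhip are transcribed in answer to GLI activity in most tissues, and GLI2 in human melanoma has been linked to an invasive, poorly pigmented state.

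Depth recovered from the values was 15972800 to 22832500 reads a library. The first principal component of log2(FPKM + 1) held 69.4% of the variance and separated the groups, and the second held 14.3% and set NTC library 2 apart, at -16.5 against 7.66 and 12.4 in the other NTC libraries. The Gli2CA libraries lay within -2.01 to -0.31 on that second axis. No library was a copy of another, since the closest pair still differed by a chi-square of 4.91 per gene. Although the cells are labelled as melanoma, defining pigment markers were at or near 0. Tyr, tyrosinase, was at 0.00616, 0 and 0.0175 FPKM in the NTC libraries and 0.106, 0.109 and 0.127 FPKM in the Gli2CA libraries, and Dct was listed at 0 in all 6 libraries. Sox10 and Mitf, lineage factors of melanocytes, were expressed, with Sox10 at 197, 177 and 192 FPKM in the NTC libraries and 171, 154 and 161 FPKM in the Gli2CA libraries.

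Reads counted to Gli2 itself (ENSMUSG00000048402, chr1:118834132-119053619 on the minus strand in GRCm38) were almost absent. The NTC libraries held 0 reads each and the Gli2CA libraries 1, 0 and 5, or 0.00911, 0 and 0.0386 FPKM. An exact 2-sided permutation test gave p = 0.4, where 0.1 is the smallest value that 3 against 3 libraries allow. A level of 0 reads allows up to 0.0191, 0.0257 and 0.0272 FPKM in the 3 NTC libraries, at 3 reads each. Because the sequence of the active form is not in the labels, these reads do not show how much of it was made, and the label was checked through the targets.

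Gli1 was higher in all 3 Gli2CA libraries. It stood at 0.228, 0.177 and 0.162 FPKM in the NTC libraries and 1.27, 1.33 and 0.967 FPKM in the Gli2CA libraries, from 26, 15 and 13 reads against 101, 120 and 91. The groups did not overlap, the means differed 6.28-fold, and the exact permutation p was 0.1, the smallest possible. Gli1 lay below the expression filter. In a fit without the filter its log2 change was 0.88 with an adjusted p of 0.0028 in limma.

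Ptch1, the Hedgehog receptor, was at 2.68, 2.48 and 2.66 FPKM in the NTC libraries and 5.92, 5.54 and 5.71 FPKM in the Gli2CA libraries. Every Gli2CA library was above every NTC library by more than the spread within either group (log2 change 0.90, SE 0.073, adjusted p = 6.76e-05, by limma's moderated test with Benjamini-Hochberg adjustment over all 10784 genes, as for every adjusted p below). Gas1, a cell-surface co-receptor for Hedgehog ligands, was at 0.37, 0.278 and 0.315 FPKM in the NTC libraries and 3.15, 2.65 and 2.64 FPKM in the Gli2CA libraries (log2 change 1.53, SE 0.097, adjusted p = 1.96e-05). Its groups were far apart, though 19.9% of its exonic length overlaps other genes, whose reads cannot be told from its own here. Gli3 fell from 1.72 ± 0.0697 to 1.21 ± 0.123 FPKM (log2 change -0.30, SE 0.09, adjusted p = 0.0397), and this call was lost under 9 of the alternative settings, among them the all-12 fit and leaving out any 1 library. The signal transducer Smo (0.01 on the log2 scale, adjusted p = 0.928) and the GLI inhibitor Sufu (-0.03, adjusted p = 0.893) were not called. Hhip, another feedback inhibitor, had 2 reads in 1 Gli2CA library and none elsewhere. Of 11 tested pathway components 5 were called higher (45.5%, beside 14.7% of all genes tested) and 1 lower (9.09%, beside 12.1%). The others that rose were Disp1, Spop and Stk36, and the call of Stk36 was lost under 11 alternatives. Gas1 and Stk36 were under 1 FPKM in every NTC library and passed the filter only through Gli2CA. The higher count is therefore partly set by the filter. The higher count was 3 after rescaling and without any 1 library other than Gli2CA library 2, and the lower count was 0 without any 1 library, 2 after rescaling and 3 with library weights.

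**Figure D1:**
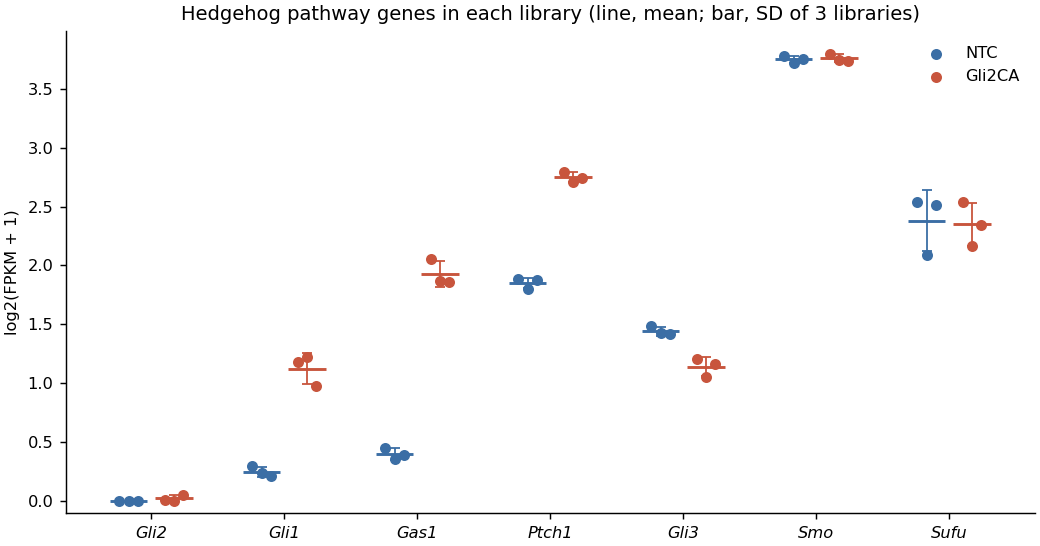
The plot gives log2(FPKM + 1) of 7 Hedgehog pathway genes in each NTC (blue) and Gli2CA (red) library, with the mean as a line and the SD of 3 libraries as a bar. Gli1, Gas1 and Ptch1 separate without overlap upwards and Gli3 downwards, while Smo and Sufu overlap and Gli2 stays near 0.

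Of all genes tested, 26.8% were called at an adjusted p under 0.05, which were 1587 higher in Gli2CA (14.7%) and 1307 lower (12.1%). A change of at least 2-fold on the log2(FPKM + 1) scale was reached by 241 of the higher genes (2.23% of those tested) and 40 of the lower ones (0.371%). Most changes were small. The median fold of the means was 1.46 among genes called higher and 1.41 among genes called lower, while means differed at least 8-fold in 57 and 7 genes. The libraries of the groups did not overlap in 4812 genes, 44.6% of those tested, so a gene whose groups are apart is no rare thing here. Counts in the gene lists below are to be set beside the 14.7% and 12.1%, since some lists lay near them. A member low in one group could pass the filter through the other group alone, so list counts can be partly set by the filter. The scale matters for small changes. The FPKM summed to 311527 to 332239 in NTC and 355766 to 361790 in Gli2CA, and rescaling to a common total moved the median change of all genes from 0.00 to -0.14 and the share of calls that were higher from 54.8% to 25.0%. All 281 genes called by at least 2-fold were still called in the same direction, but 191 higher and 71 lower genes then reached 2-fold. Small changes depend on that choice. Among named genes with rises of up to 0.42 on the log2 scale, Hes6 (0.42), Slc39a13 (0.36) and Rbpj (0.33) were not called after rescaling.

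**Figure D2:**
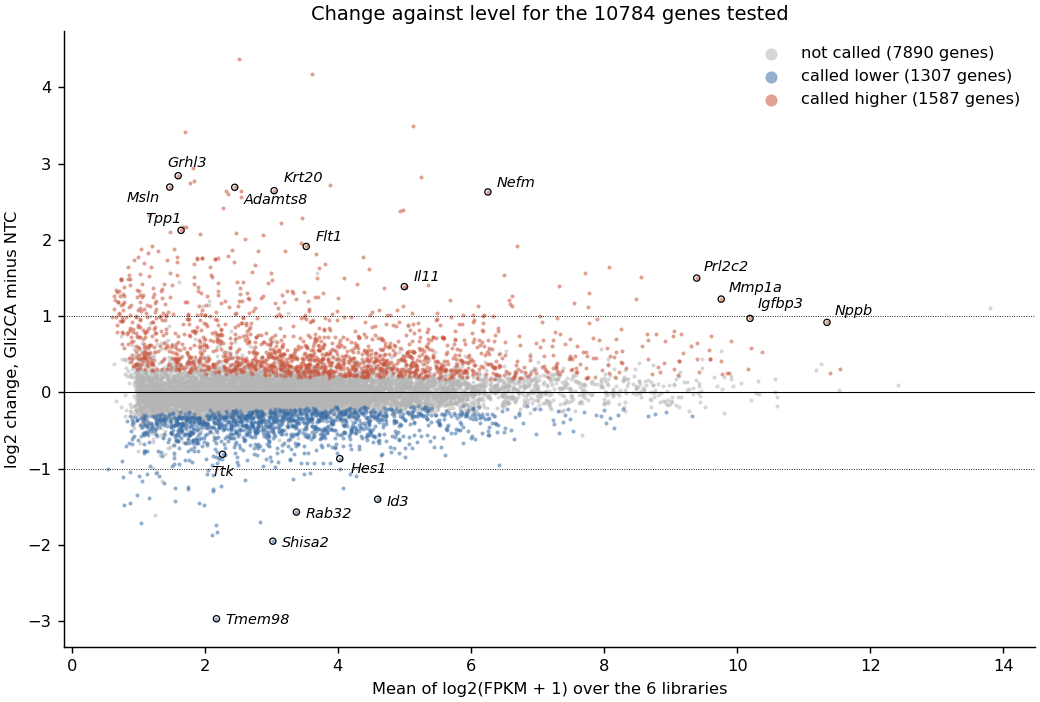
Each point is 1 gene, with its mean log2(FPKM + 1) over 6 libraries on the x axis and its log2 change (Gli2CA minus NTC) on the y axis, and dotted lines mark 2-fold. The largest changes lie upwards and at low to middle levels (Grhl3, Msln, Krt20), while Nppb, Igfbp3, Mmp1a and Prl2c2 moved by about 2-fold to 3-fold at high levels.

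Genes of stratified and simple epithelia were among the largest rises, from low levels. Grhl3, a grainyhead transcription factor of the epidermal barrier, was at 0.0942, 0.148 and 0.156 FPKM in the NTC libraries and 7.21, 6.68 and 7.48 FPKM in the Gli2CA libraries. All 3 Gli2CA libraries lay above 6 FPKM and all NTC libraries below 0.2 (log2 change 2.84, SE 0.084, adjusted p = 6.15e-07). Krt20, a keratin of intestinal and urothelial cells, was at 2.68, 1.41 and 3.04 FPKM in the NTC libraries and 19.4, 18.9 and 20.6 FPKM in the Gli2CA libraries, and NTC library 2 was the lowest of all (log2 change 2.65, SE 0.17, adjusted p = 2.26e-05). Krt19, a keratin of simple epithelia, went from 1.06 ± 0.452 to 5.83 ± 1.07 FPKM, and Sprr1a, a precursor of the cornified envelope, from 0.201 ± 0.194 to 1.29 ± 0.265 FPKM. Msln, the mesothelial surface protein mesothelin, was at 0.166, 0 and 0.118 FPKM in the NTC libraries and 5.75, 6.09 and 6.36 FPKM in the Gli2CA libraries (log2 change 2.69, SE 0.095, adjusted p = 1.07e-06). Tmprss11b, a membrane serine protease of squamous epithelia, rose from 1.08 ± 0.155 to 11.6 ± 0.924 FPKM (log2 change 2.60, SE 0.091, adjusted p = 1.07e-06).

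In the list of keratins and other epithelial genes, 5 of 8 tested members were called higher and 3 were not called, with a median log2 change of 0.91 against 0.00 over all genes, and 22 of its 30 members lay below the filter. Members low in NTC, such as Sprr1a, passed the filter only through their Gli2CA libraries, so this count and median are partly set by the filter. The other members called were Pdpn, a mucin-type surface glycoprotein, and Lgals7, a galectin of stratified epithelia. Keratinocyte markers summed to 1.97 to 2.68 FPKM in NTC and 2.84 to 3.09 in Gli2CA over 12 genes, 5 of which were at 0 in all 6 libraries. Krt10, the 1 marker of them tested, was not called (-0.17). Some junction genes also rose. Pkp1, the desmosomal plakophilin, rose from 30.2 ± 0.817 to 63.3 ± 3.43 FPKM, and F11r and Jam2, both junctional adhesion molecules, rose 2.74-fold and 1.89-fold. Of 15 tested cadherins and junction genes, 4 were higher and 1, Jup, lower. Jup was not called without NTC library 1 or Gli2CA library 2 or 3, and 2 genes were lower without NTC library 3. After rescaling 5 were lower, and with library weights 8 were higher and 5 lower.

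A small set of genes went from almost nothing to a clear signal. By the rule of at most 0.1 FPKM in every library of one group and at least 1 in every library of the other, 13 genes were on in Gli2CA and 2 were off. Bdkrb2, the bradykinin B2 receptor, was at 0.0924, 0.0466 and 0.0164 FPKM in the NTC libraries and 3.1, 2.19 and 2.27 FPKM in the Gli2CA libraries. Its NTC libraries held only a trace, while every Gli2CA library was above 2 FPKM. Galnt17, of a family of enzymes that start O-linked glycosylation, was at 0.0186, 0 and 0.0132 FPKM in the NTC libraries and 2.32, 2.08 and 2.1 FPKM in the Gli2CA libraries. Selp, the adhesion receptor P-selectin, was at 0.0595, 0.0667 and 0.0846 FPKM in the NTC libraries and 2.16, 1.45 and 1.78 FPKM in the Gli2CA libraries, with 14.1% of its exons shared with other genes. For Oas1a, a sensor of double-stranded RNA, each NTC library was listed at 0, with 1.83, 1.55 and 1.94 FPKM in the Gli2CA libraries. The 2 genes that were off were Sytl4, a Rab27 effector of secretory granules (1.55, 2.56 and 1.6 FPKM in the NTC libraries and 0, 0.0216 and 0.0932 FPKM in the Gli2CA libraries), and Slc2a10, the glucose transporter GLUT10 (1.09, 1.04 and 1.08 FPKM in the NTC libraries and 0.0351, 0.0619 and 0.0149 FPKM in the Gli2CA libraries). In both, no Gli2CA library exceeded 0.1 FPKM.

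Ligands of the EGF receptor rose together. Areg, amphiregulin, was at 106, 117 and 109 FPKM in the NTC libraries and 224, 214 and 218 FPKM in the Gli2CA libraries. Libraries of the same group lay within a narrow band and the groups were about 100 FPKM apart (log2 change 0.98, SE 0.06, adjusted p = 1.75e-05). Btc, betacellulin, was at 23.3, 32.5 and 23.6 FPKM in the NTC libraries and 43.9, 46.6 and 45.7 FPKM in the Gli2CA libraries, with NTC library 2 above the other NTC libraries but still below all of Gli2CA (log2 change 0.78, SE 0.12, adjusted p = 0.00193). Tgfa rose by 0.63 and Hbegf by 0.56 on the log2 scale. The feedback inhibitors of the receptor moved the same way. Errfi1, which blocks the kinase domain, was at 44.3, 48.8 and 46.1 FPKM in the NTC libraries and 93.8, 90.3 and 88.4 FPKM in the Gli2CA libraries (log2 change 0.95, SE 0.061, adjusted p = 2.1e-05), and Lrig1, which promotes receptor degradation, rose 1.61-fold. Erbb3, the neuregulin receptor of melanocyte precursors, fell from 67 ± 2.87 to 47.4 ± 3.83 FPKM. Of the 10 tested members of this family 6 were higher, a count that held under every alternative tried, and 1 was lower (2 without NTC library 2 and 3 after rescaling). The median log2 change was 0.60.

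Flt1, which encodes VEGF receptor 1, was at 5.29, 4.41 and 5.11 FPKM in the NTC libraries and 22.6, 19.9 and 21.5 FPKM in the Gli2CA libraries. The Gli2CA libraries were 4.33-fold higher on average (log2 change 1.91, SE 0.083, adjusted p = 3.39e-06). The ligands Vegfa (0.57) and Vegfd (0.64) rose as well, while Pdgfa (-0.45), Pdgfb (-0.71) and Gas6 (-0.69), a ligand of the TAM receptors, fell. In that list 7 of 16 tested members were higher and 4 lower, and 4 were higher in the all-12 fit. The 15 endothelial markers, of which 3 were at 0 throughout, summed to 94.5 to 102 FPKM in NTC and 106 to 121 in Gli2CA. Most of that sum was the TGF-beta co-receptor Eng, at 92.9, 88.7 and 85.2 FPKM in the NTC libraries and 94.9, 81 and 82.5 FPKM in the Gli2CA libraries, which was not called. Pecam1 and Kdr, defining markers, were near 0, with 0.0603, 0.0355 and 0.0341 and 0.0347, 0.00612 and 0.0176 FPKM in the Gli2CA libraries. Fgf18, a ligand of bone and lung development, was at 0.111, 0.149 and 0.315 FPKM in the NTC libraries and 2.69, 2.28 and 2.5 FPKM in the Gli2CA libraries, a separation far beyond the spread (log2 change 1.55, SE 0.11, adjusted p = 2.89e-05), and 3 of 6 tested FGF genes were higher and 3 were not called (2 were lower after rescaling). In the IGF axis, Igfbp4 rose 1.62-fold and Igf2r, the scavenging receptor for IGF2, 1.51-fold, while Igf2bp3, an RNA-binding protein of fetal tissue, fell from 2.07 ± 0.511 to 0.115 ± 0.021 FPKM, with 18.7% of its exons shared with other genes. Of 11 tested members 4 were higher and 2 lower, in the all-12 fit 2 were higher, and after rescaling 4 were lower.

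**Figure D3:**
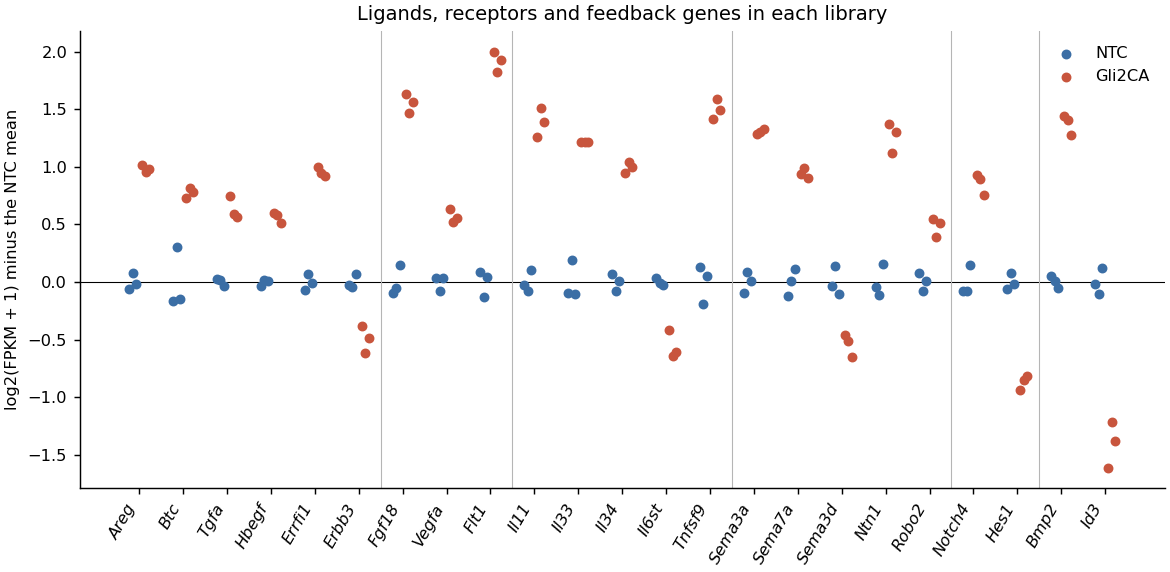
For 23 ligands, receptors and feedback genes, each point is 1 library's log2(FPKM + 1) minus the mean of the 3 NTC libraries (blue, NTC; red, Gli2CA). In every gene drawn the groups lie apart, with 18 genes upwards and Erbb3, Il6st, Sema3d, Hes1 and Id3 downwards. The genes were picked with the results known, so their separation follows from the choice, and groups do not overlap in 44.6% of all genes tested.

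Among interleukin genes more members were called higher than lower. Il11, a cytokine that signals through gp130, was at 18.4, 17.7 and 20.3 FPKM in the NTC libraries and 46.4, 55.4 and 50.8 FPKM in the Gli2CA libraries. Each Gli2CA library was more than 2 times the highest NTC library (log2 change 1.39, SE 0.083, adjusted p = 1.59e-05). Il33, a nuclear alarmin, was at 58, 70.8 and 57.5 FPKM in the NTC libraries and 145, 145 and 144 FPKM in the Gli2CA libraries, with the Gli2CA libraries almost identical (log2 change 1.21, SE 0.084, adjusted p = 3.13e-05). Il34, a ligand of the CSF1 receptor, went from 50.2 ± 2.59 to 101 ± 3.31 FPKM and Clcf1, another gp130 ligand, from 36.1 ± 4.45 to 72.1 ± 2.32 FPKM. The shared receptor subunit itself, Il6st (gp130), fell from 48 ± 0.983 to 32.4 ± 2.8 FPKM (log2 change -0.55, SE 0.072, adjusted p = 0.000807), and Lifr (-0.43) fell with it. Of 16 tested interleukin genes 8 were higher and 3 lower, and 5 were higher in the all-12 fit. Tnfsf9, the T-cell costimulatory ligand 4-1BBL, was at 10.1, 7.89 and 9.51 FPKM in the NTC libraries and 26, 29.4 and 27.5 FPKM in the Gli2CA libraries, about 3 times higher on average (log2 change 1.50, SE 0.094, adjusted p = 1.9e-05), with 14.9% of its exons shared with other genes. Fas, the death receptor, fell by 0.43 on the log2 scale. Among 13 tested TNF family genes 4 were higher and 2 lower. Leaving out any 1 library other than NTC library 2 gave 0 or 1 lower, and rescaling 4.

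Chemokines and myeloid factors had 10 higher and 2 lower of 15 tested, with a median log2 change of 1.00. Members low in NTC, such as Ccl5, passed the filter only through Gli2CA, so the count and median are partly set by it. Ccl8 was at 0.857, 1.5 and 0.731 FPKM in the NTC libraries and 10.7, 12.2 and 11.6 FPKM in the Gli2CA libraries (log2 change 2.64, SE 0.14, adjusted p = 8.43e-06) and Ccl5 at 0.182, 0 and 0.389 FPKM in the NTC libraries and 2.15, 3.92 and 2.65 FPKM in the Gli2CA libraries (log2 change 1.70, SE 0.18, adjusted p = 0.00031), both chemokines that draw monocytes and T cells. Their groups did not overlap, although the NTC levels of Ccl5 rested on few reads. Cxcl10 fell by 0.55. Leukocyte markers summed to 2.18 to 3.27 FPKM in NTC and 7.48 to 9.05 in Gli2CA over 23 genes. Cd68, which also encodes a lysosomal glycoprotein, was the 1 marker tested and made up most of the rise, at 1.29, 1.12 and 1.93 FPKM in the NTC libraries and 8.12, 6.82 and 6.59 FPKM in the Gli2CA libraries. Itgam was listed at 0 in all libraries and Ptprc, the pan-leukocyte marker CD45, was at 0, 0.00321 and 0.0034 FPKM in the NTC libraries and 0, 0.00604 and 0.0087 FPKM in the Gli2CA libraries, and 7 of the 23 were at 0 throughout.

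Axon guidance genes were called higher more often than lower. Sema3a, a secreted repellent, was at 1.29, 1.61 and 1.47 FPKM in the NTC libraries and 4.99, 5.05 and 5.15 FPKM in the Gli2CA libraries. The Gli2CA libraries were within 0.2 FPKM of each other and 3.48-fold above NTC (log2 change 1.30, SE 0.082, adjusted p = 1.91e-05). Sema7a, a membrane-anchored semaphorin, went from 31.1 ± 2.53 to 60.7 ± 1.96 FPKM. Its relatives Sema6d (0.66), Sema4b (0.51) and Sema6b (0.46) and the receptor subunits Plxna4 (0.70) and Nrp2 (0.67) rose, while Nrp1 (-0.38) and Sema3d (-0.54) fell. Of 23 tested members 13 were higher and 2 lower (4 after rescaling). The higher count was 6 in the all-12 fit and 8 after rescaling, without Gli2CA library 1 or without Gli2CA library 3. Ntn1, the guidance cue netrin-1, was at 3.58, 3.36 and 4.25 FPKM in the NTC libraries and 11.2, 9.26 and 10.6 FPKM in the Gli2CA libraries, clear of NTC in every library (log2 change 1.26, SE 0.099, adjusted p = 5.56e-05). Its receptors Unc5b (0.42) and Neo1 (0.29), the Slit receptor Robo2 (0.48) and the BMP co-receptor Rgmb (0.69) rose by less. Of 8 netrin and Slit genes 6 were higher and 2 not called, with 3 higher in the all-12 fit. Ephrins and Eph receptors gave 2 higher and 2 lower of 10. Efna2 rose from 1.97 ± 0.279 to 4.55 ± 0.697 FPKM and Ephb4 fell by 0.40 on the log2 scale. Without NTC library 1 or 3 or Gli2CA library 2 or 3, 1 was lower.

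The largest gains in absolute level were in transcripts of secreted, cytoskeletal and S100 proteins. Nppb, the natriuretic peptide BNP, was at 1675, 1997 and 2042 FPKM in the NTC libraries and 3225, 4039 and 3546 FPKM in the Gli2CA libraries. It was the called gene with the largest rise in mean FPKM, and the groups did not overlap (log2 change 0.92, SE 0.11, adjusted p = 0.000498), but in the all-12 fit the call was lost. Igfbp3, an IGF-binding protein, was at 825, 838 and 843 FPKM in the NTC libraries and 1607, 1662 and 1646 FPKM in the Gli2CA libraries, with little spread in either group (log2 change 0.97, SE 0.057, adjusted p = 1.52e-05). Mmp1a, an interstitial collagenase that the annotation lists as a polymorphic pseudogene, was at 522, 632 and 551 FPKM in the NTC libraries and 1321, 1340 and 1314 FPKM in the Gli2CA libraries (log2 change 1.22, SE 0.079, adjusted p = 2.19e-05). Prl2c2, a secreted prolactin-family protein also called proliferin, was at 370.3, 470.5 and 364 FPKM in the NTC libraries and 1082, 1157 and 1149 FPKM in the Gli2CA libraries (log2 change 1.50, SE 0.1, adjusted p = 2.72e-05). It shares near-identical copies with other Prl2c genes, so the split of reads among them is uncertain. Nefm, the medium neurofilament subunit, was at 36.4, 22.8 and 31.6 FPKM in the NTC libraries and 195, 182 and 190.2 FPKM in the Gli2CA libraries. It gained about 159 FPKM (log2 change 2.63, SE 0.14, adjusted p = 1.07e-05), with 19.2% of its exons overlapping other genes. The rises of Tmsb4x and Vim, at 0.30 and 0.26, were within reach of the scaling, and quantile normalisation turned both to -0.045 and -0.034. The largest loss was in Tuba1a, an alpha-tubulin with near-identical copies, from 714 ± 56 to 574 ± 31.6 FPKM, and its call was lost in the all-12 fit and without Gli2CA library 1 or 3.

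Calcium-binding S100 proteins and annexins had 9 higher and 3 lower of 19, but 2 were higher in the all-12 fit and 6 were lower after rescaling. S100a8, a subunit of the alarmin calprotectin, was at 1.14, 2.71 and 0.718 FPKM in the NTC libraries and 13.5, 14.2 and 11.7 FPKM in the Gli2CA libraries. NTC library 2 was the highest NTC library, and all Gli2CA libraries exceeded it by 4 times or more (log2 change 2.56, SE 0.24, adjusted p = 0.000168). S100a6 and S100a10 rose 1.49-fold and 1.44-fold, and both calls were lost in the all-12 fit. S100b, the glial and melanocytic member, fell by 0.55. Mt1, a metallothionein that binds zinc and copper, rose from 0.285 ± 0.0954 to 8.87 ± 0.918 FPKM. In that list 5 of 17 were higher and 12 not called, and 2 were higher after rescaling and without NTC library 3 or any 1 Gli2CA library. Without NTC library 2, 1 was lower, and after rescaling 2 were.

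Extracellular proteases and their inhibitors changed in both directions. Htra1, a secreted serine protease, was at 0.38, 0.266 and 0.324 FPKM in the NTC libraries and 8.07, 8.37 and 7.32 FPKM in the Gli2CA libraries. The Gli2CA libraries were 24.5-fold above NTC on average (log2 change 2.75, SE 0.086, adjusted p = 8.33e-07). Serpinb2, the plasminogen activator inhibitor 2, was at 9.81, 14.8 and 12.9 FPKM in the NTC libraries and 61.7, 75.7 and 68.2 FPKM in the Gli2CA libraries (log2 change 2.38, SE 0.14, adjusted p = 1.28e-05), with 12.4% of its exons shared with other genes. Mmp3, stromelysin 1, went from 233 ± 17.9 to 543 ± 12.5 FPKM. Mmp10, Mmp9 and Mmp19, all matrix metalloproteinases, rose by 1.11, 0.84 and 0.93 on the log2 scale. Adamts8, an anti-angiogenic metalloprotease, was at 1.08, 1.12 and 1.25 FPKM in the NTC libraries and 12.5, 12.6 and 13.5 FPKM in the Gli2CA libraries (log2 change 2.69, SE 0.075, adjusted p = 4.27e-07), with 10.6% of its exons shared. Against them, Adam12 fell from 7.62 ± 0.406 to 1.42 ± 0.089 FPKM (log2 change -1.83, SE 0.078, adjusted p = 3.13e-06), Adamts5, an aggrecanase, by 1.15 and Mmp15, a membrane-type metalloproteinase, by 1.00. In all 19 of 41 were higher and 8 lower. In the all-12 fit 11 were higher, and after rescaling 13 were lower.

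Matrix genes were mostly higher. Tnc, tenascin C, was at 1.93, 1.28 and 1.72 FPKM in the NTC libraries and 5.99, 4.97 and 5.12 FPKM in the Gli2CA libraries, with no overlap (log2 change 1.27, SE 0.12, adjusted p = 0.000121). Spp1, osteopontin, rose from 123 ± 8.96 to 279 ± 14.3 FPKM, with 18.8% of its exons overlapping other genes. Tgfbi (0.91), the laminin subunit Lama5 (0.56), the syndecans Sdc3 (1.01) and Sdc1 (0.71) and the crosslinking enzymes Loxl2 (0.78) and Plod2 (0.60) rose. Ltbp2, a fibrillin-associated glycoprotein, was at 3.93, 3.65 and 3.02 FPKM in the NTC libraries and 0.849, 0.959 and 0.902 FPKM in the Gli2CA libraries and fell in all Gli2CA libraries below 1 FPKM (log2 change -1.25, SE 0.1, adjusted p = 6.47e-05), and Thbs2 fell by 0.77. Of 41 tested matrix genes 24 were higher and 2 lower, and 12 were higher in the all-12 fit. After rescaling 16 were higher and 6 lower.

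Collagens were less uniform. Col4a5, a chain of basement membrane collagen, was at 0.0391, 0 and 0.00927 FPKM in the NTC libraries and 1.84, 1.39 and 1.38 FPKM in the Gli2CA libraries, which meant a few reads at most in NTC and a clear signal in Gli2CA (log2 change 1.31, SE 0.11, adjusted p = 8.12e-05). Col8a1 (0.47) and Col6a3 (0.42) rose, and Col1a1 (-0.74) and Col28a1 (-0.36) fell. Of 16 tested, 3 were higher (18.8%, beside 14.7% of all genes) and 2 lower (12.5%, beside 12.1%), near the background. Without NTC library 2, 6 were lower, and without NTC library 1 or Gli2CA library 2, 1 was (4 after rescaling). Fibroblast markers summed to 110 to 128 FPKM in NTC and 142 to 145 in Gli2CA over 15 genes, with 2 at 0 throughout. Of 5 of them tested, Pdgfra (1.95-fold) and Twist2 (1.3-fold) rose, Col1a1 fell, and Col3a1 and S100a4 were not called. The call of Twist2 was lost after rescaling and in the all-12 fit. Integrins split evenly, with 4 higher (Itgb4, Itga5, Itga3 and Itgb1) and 4 lower (Itga8, Itga1, Itgb5 and Itga2) of 13, of which 2 and 1 were called in the all-12 fit. Itgb4, the hemidesmosome subunit, rose from 14.6 ± 0.617 to 24.8 ± 2.23 FPKM and Itga8 fell from 7.59 ± 0.134 to 4.21 ± 0.119 FPKM. Contractile genes gave 4 higher and 1 lower of 16, led by the tropomyosin Tpm1 (0.67), and 2 were higher after rescaling, in the all-12 fit or without Gli2CA library 2 or 3. The lower count was 2 without NTC library 2, 0 without Gli2CA library 3 and 3 after rescaling. Chrna1, the muscle nicotinic receptor subunit, was at 2.34, 2.79 and 2.67 FPKM in the NTC libraries and 13.6, 14.5 and 14.2 FPKM in the Gli2CA libraries (log2 change 2.07, SE 0.076, adjusted p = 1.34e-06) and was the 1 muscle marker tested. The 12 muscle markers summed to 3.19 to 3.54 FPKM in NTC and 14.9 to 15.3 in Gli2CA, with 8 at 0 in all libraries.

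Nearly all tested genes of mitosis fell. Of 48 members 46 were lower and 2 not called, where 12.1% of all genes were lower, and the median log2 change was -0.55. The count was 34 to 48 over the alternatives. Ttk, a spindle checkpoint kinase, was at 5.48, 6.56 and 4.29 FPKM in the NTC libraries and 2.63, 2.56 and 2.71 FPKM in the Gli2CA libraries. Its Gli2CA libraries were nearly equal and below all of NTC, among which library 2 was highest (log2 change -0.81, SE 0.12, adjusted p = 0.00193). Cdc20, the activator of the anaphase-promoting complex, was at 54.6, 50.3 and 59.3 FPKM in the NTC libraries and 31.2, 35.9 and 32.2 FPKM in the Gli2CA libraries (log2 change -0.71, SE 0.082, adjusted p = 0.000444), and Ckap2, a spindle microtubule protein, at 20.3, 19.6 and 17.1 FPKM in the NTC libraries and 12.2, 10.6 and 10.7 FPKM in the Gli2CA libraries (log2 change -0.72, SE 0.085, adjusted p = 0.000517). In both genes the groups were apart. Mki67, which encodes the proliferation antigen Ki-67, fell from 11.2 ± 1.25 to 6.52 ± 0.574 FPKM. The 2 members not called were Pttg1 (-0.13) and Bub3 (-0.15).

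Many promoters of mitotic genes hold a cell cycle homology region, or CHR, a short element bound by the DREAM and B-MYB complexes. The letters TTTGAA or their reverse complement TTCAAA were searched in RefSeq windows of GRCm38.p6 that run from 250 bases before to 50 bases after a transcription start. They were in 29 of 40 mitotic genes with a window and in 6 of 38 replication genes. As shares of windows, that is 74.4% for mitotic genes, 13.3% for replication genes and 17.9% of all 32851 windows. CCAAT or ATTGG, the letters of the NF-Y element, were in 83.7% of the windows of mitotic genes, 57.8% of those of replication genes and 37.4% of all windows. All windows include those of genes not tested here. These shares describe the letters, and a match is not a bound site. The windows of 3 called mitotic genes that hold the letters are printed as examples, to show where the element lies. They were taken by size of fall, but the choice left out part of the genome, so it is not a full ranking. For a gene with more than 1 window, the window with the most matches was taken. They run 5′ to 3′ on the gene's strand, with TTTGAA or TTCAAA in capitals.
Ttk (chr9:83834439-83834738, plus strand): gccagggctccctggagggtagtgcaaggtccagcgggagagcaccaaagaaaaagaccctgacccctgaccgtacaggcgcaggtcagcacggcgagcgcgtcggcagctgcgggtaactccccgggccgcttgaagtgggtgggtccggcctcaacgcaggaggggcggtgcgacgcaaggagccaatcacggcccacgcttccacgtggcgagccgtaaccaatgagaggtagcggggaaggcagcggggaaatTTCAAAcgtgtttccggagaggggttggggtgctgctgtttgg
Ckap2 (chr8:22185770-22186069, minus strand): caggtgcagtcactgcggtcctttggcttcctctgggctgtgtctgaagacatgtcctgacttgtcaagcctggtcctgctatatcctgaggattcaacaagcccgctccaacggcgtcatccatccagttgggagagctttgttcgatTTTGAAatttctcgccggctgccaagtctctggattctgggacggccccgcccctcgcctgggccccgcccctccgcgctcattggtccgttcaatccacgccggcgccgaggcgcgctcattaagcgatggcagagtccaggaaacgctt
Cdc20 (chr4:118437294-118437593, minus strand): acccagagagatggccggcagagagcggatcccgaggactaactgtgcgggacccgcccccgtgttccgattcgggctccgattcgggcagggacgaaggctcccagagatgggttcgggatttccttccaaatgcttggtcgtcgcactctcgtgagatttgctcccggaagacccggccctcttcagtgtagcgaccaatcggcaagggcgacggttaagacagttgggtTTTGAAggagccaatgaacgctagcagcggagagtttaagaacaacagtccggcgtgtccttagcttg
The first base of the match lies at position 8 after the start in Ttk and at -101 and -18 before it in Ckap2 and Cdc20, counting the first transcribed base as 1 and the base before it as -1.

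DNA replication and G1-S genes were also mostly lower. Of 47 tested members 36 were lower and 1, E2f1, higher (not called without NTC library 1 or any 1 Gli2CA library), with a median of -0.39, and 14 were lower in the all-12 fit. Mcm6, a subunit of the replicative helicase, was at 24.3, 25.2 and 23.6 FPKM in the NTC libraries and 15.1, 13.8 and 15 FPKM in the Gli2CA libraries, with the groups well apart (log2 change -0.70, SE 0.064, adjusted p = 0.000136). Rpa2, which coats single-stranded DNA, fell from 13.9 ± 0.391 to 8.79 ± 0.541 FPKM. Among cyclins and inhibitors 3 of 17 were higher (17.6%, beside 14.7% of all genes) and 4 lower (23.5%, beside 12.1%), and 7 were lower after rescaling. Cdkn1a, the cycle inhibitor p21, rose from 195 ± 8.83 to 267 ± 9.33 FPKM (log2 change 0.45, SE 0.062, adjusted p = 0.00109), and Mxd3, a MAX-binding repressor, fell from 9.61 ± 0.6 to 4.93 ± 0.871 FPKM. Genes listed as p53 targets moved in both directions, with 6 higher and 4 lower of 20, and the lower count was 8 with voom and 1 or 2 without any 1 library other than NTC library 2. Plk2 (0.86) and Gdf15 (0.56) rose and Sesn1 (-0.62) fell. Sesn1 is a stress-induced inhibitor of mTORC1.

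Glycolysis and hypoxia genes had 27 higher and 5 not called of 32 tested, against a background of 14.7% higher, with a median log2 change of 0.57. Hk2, the inducible hexokinase, was at 2.29, 2.59 and 2.61 FPKM in the NTC libraries and 7.16, 6.27 and 6.38 FPKM in the Gli2CA libraries. The Gli2CA libraries were 2.65-fold higher (log2 change 1.12, SE 0.083, adjusted p = 4.26e-05). Slc2a1, the glucose transporter GLUT1, was at 51.2, 59.7 and 57.1 FPKM in the NTC libraries and 112, 115 and 111 FPKM in the Gli2CA libraries (log2 change 1.00, SE 0.069, adjusted p = 3.13e-05), and Bnip3, a mitophagy receptor, at 37.1, 45.4 and 39.3 FPKM in the NTC libraries and 67.5, 93.2 and 90.9 FPKM in the Gli2CA libraries (log2 change 1.02, SE 0.13, adjusted p = 0.000708). None of these groups overlapped, though 22.3% of the exons of Bnip3 are shared with other genes. The glycolytic enzymes Pgk1 (0.74), Aldoa (0.65), Tpi1 (0.60), Pkm (0.56) and Ldha (0.44) rose by smaller steps from high levels, Pgk1 from 604 ± 30.5 to 1009 ± 72.8 FPKM. Car9, Pfkp, Pfkm, Pfkfb3 and Ddit4 were not called.

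The hypoxia-inducible factors bind elements with the core ACGTG. These letters or their reverse complement, CACGT, on either strand, were in at least 1 window of 21 of the 29 genes of this list that have one. As shares of windows, that is 57.1% for this list, 31.1% for replication genes, 25.6% for mitotic genes and 19.6% of all windows. All windows include genes not tested here, so the last share is not that of expressed genes. The list was made up of glycolysis and hypoxia response genes, so its share can follow from that choice and says nothing of this comparison. A match is not a bound site. Only 76.4% of the tested genes had a window, so no share is given for them. The windows of 3 called members whose window holds the letters are given in the same way, with the core in capitals. They were taken by size of rise, again without part of the genome, so this is not a full ranking. For a gene with more than 1 window, the window with the most matches was taken. The Ankrd37 window lies inside the gene as annotated (chr8:45996902-46005707).
Hk2 (chr6:82774405-82774704, minus strand): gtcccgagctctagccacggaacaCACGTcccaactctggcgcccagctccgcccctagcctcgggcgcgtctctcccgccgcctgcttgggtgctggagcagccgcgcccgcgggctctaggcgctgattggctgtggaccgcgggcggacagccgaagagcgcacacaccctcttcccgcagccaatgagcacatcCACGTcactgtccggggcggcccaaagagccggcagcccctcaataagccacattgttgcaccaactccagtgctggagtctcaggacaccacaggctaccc
Ankrd37 (chr8:45999801-46000100, minus strand): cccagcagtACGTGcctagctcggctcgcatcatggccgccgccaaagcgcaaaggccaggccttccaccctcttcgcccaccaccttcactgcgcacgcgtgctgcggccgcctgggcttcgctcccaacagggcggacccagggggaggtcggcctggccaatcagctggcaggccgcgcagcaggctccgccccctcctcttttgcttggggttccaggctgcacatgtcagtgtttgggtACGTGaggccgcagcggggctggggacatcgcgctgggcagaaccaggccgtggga
Bnip3 (chr7:138909457-138909756, minus strand): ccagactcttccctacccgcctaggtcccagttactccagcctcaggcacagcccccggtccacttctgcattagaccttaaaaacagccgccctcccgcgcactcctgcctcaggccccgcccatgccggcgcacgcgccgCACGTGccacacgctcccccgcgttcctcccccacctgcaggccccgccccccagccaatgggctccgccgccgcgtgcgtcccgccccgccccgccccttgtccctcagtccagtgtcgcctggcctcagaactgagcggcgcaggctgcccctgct
Hk2 holds 2 matches, at -226 and -52, and Ankrd37 holds 2, at -241 and -6. In Bnip3 the 2 matches, at -108 and -107, are the same 6 letters read on either strand. The GLI consensus GACCACCCA or its reverse complement TGGGTGGTC was in 0.253% of all windows. Only 158 of the 241 genes called higher by at least 2-fold (65.6%) and 7 of 15 tested GLI target genes had a window, which is under 80%, so a share of that motif among them is void.

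**Figure D4:**
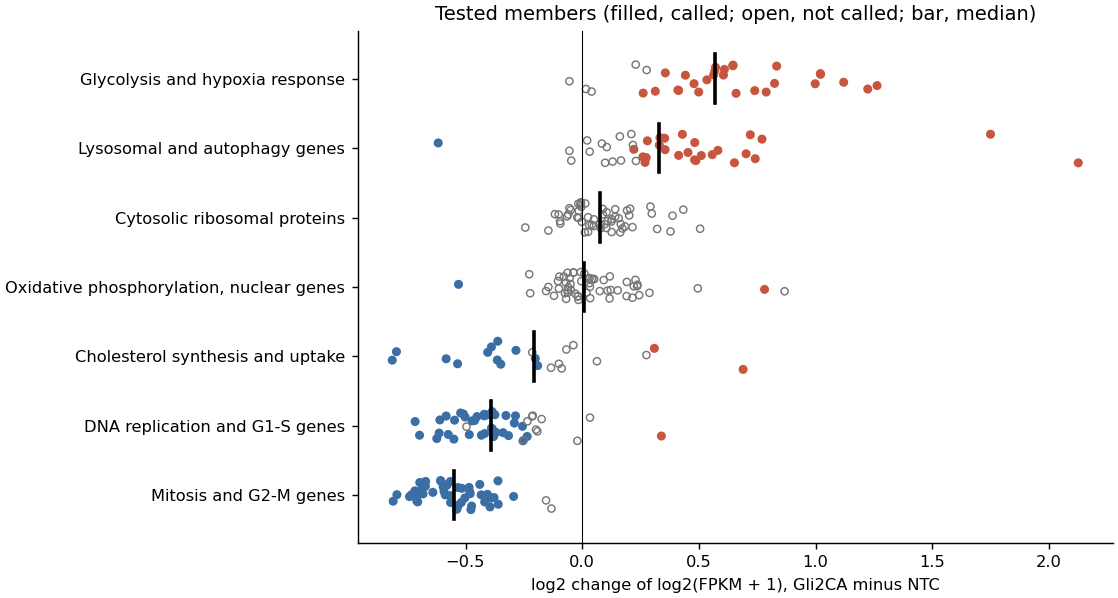
Log2 changes (Gli2CA minus NTC) of the tested members of 7 lists, where filled points were called, open points were not, and the bar is the median. Mitotic and replication genes lie to the left (medians -0.55 and -0.39), glycolysis and lysosome genes to the right (0.57 and 0.33), and oxidative phosphorylation and ribosomal genes near 0.

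Some housekeeping systems had medians near 0. Of 57 nuclear genes of oxidative phosphorylation 1 was higher (Ndufa1) and 1 lower (Ndufa4), with a median of 0.01. After rescaling 14 were lower, and without NTC library 3, 9 were higher (2 without Gli2CA library 1). With library weights 9 were higher. Of 56 cytosolic ribosomal protein genes 0 were called by limma, with a median of 0.08. At an unadjusted p under 0.05, 5 were higher and 1 lower, and voom called 2 lower. With library weights 16 were higher and 1 lower, without NTC library 3, 8 were higher, and after rescaling 6 were lower. Of 12 mitochondrially encoded genes 2 were higher (16.7%, beside 14.7% of all genes), mt-Co2 (0.56) and mt-Nd3 (0.41), and both calls were lost in the all-12 fit. The count was 9 with library weights, 5 without NTC library 2 and 1 without NTC library 1 or Gli2CA library 2 or 3. Heat shock chaperones gave 2 higher of 16 (12.5%, beside 14.7% of all genes), Cryab (0.77) and Dnajb4 (0.41). After rescaling 3 of them were lower, and without NTC library 2, 1 was.

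Genes of lipid and serine synthesis were lower more often than higher. In the cholesterol pathway 12 of 22 tested genes were lower and 2 higher, with a median of -0.21. The lower count was 7 in the all-12 fit and 6 or 7 without NTC library 1 or 3 or Gli2CA library 2 or 3. Idi1, which makes the isoprenoid building block, was at 13.2, 17.4 and 13.2 FPKM in the NTC libraries and 7.07, 8.2 and 8.5 FPKM in the Gli2CA libraries (log2 change -0.80, SE 0.12, adjusted p = 0.00153), and Hmgcs1, the HMG-CoA synthase, at 27.6, 29.6 and 26.2 FPKM in the NTC libraries and 19.2, 17.4 and 18.1 FPKM in the Gli2CA libraries (log2 change -0.58, SE 0.07, adjusted p = 0.000552). NTC library 2 was the highest in both, and the groups did not overlap. Dhcr7, which makes the last step to cholesterol, went the other way, from 41.8 ± 0.345 to 67.9 ± 2.33 FPKM (log2 change 0.69, SE 0.056, adjusted p = 6.84e-05). Without Gli2CA library 1 or 3, 1 gene was higher. Of 17 fatty acid genes 6 were lower and 1 higher, 2 lower in the all-12 fit and 10 after rescaling. The desaturase Scd1 fell from 331 ± 24.5 to 240.5 ± 18.6 FPKM and the elongase Elovl5 from 43.2 ± 2.23 to 30.5 ± 2.26 FPKM. In serine, glycine and proline synthesis and amino acid transport 7 of 20 were lower and 1 higher. Phgdh, the first enzyme of serine synthesis, was at 76.8, 69.3 and 74.9 FPKM in the NTC libraries and 45.1, 46.6 and 46.1 FPKM in the Gli2CA libraries, apart in every library (log2 change -0.67, SE 0.061, adjusted p = 0.000133), and Shmt1, Psph, Shmt2 and Psat1 of the same pathway fell by 0.47, 0.49, 0.29 and 0.22. The lower count was 2 in the all-12 fit, 3 without Gli2CA library 2 or 3 and 4 without NTC library 1 or 3. The 1 that rose was the cystine transporter Slc7a11, not called without NTC library 1 or 3 or Gli2CA library 1 or 3.

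Lysosome and autophagy genes were mostly higher. Of 39 tested 25 were higher and 1 lower, with a median of 0.33, and 13 were higher in the all-12 fit and 16 after rescaling. Tpp1, a lysosomal tripeptidyl peptidase, was at 0.416, 0.707 and 0.386 FPKM in the NTC libraries and 6.22, 4.96 and 5.46 FPKM in the Gli2CA libraries. It was about 11 times higher on average and clear of NTC in every library (log2 change 2.12, SE 0.12, adjusted p = 1.02e-05). Ctsb, cathepsin B, was at 289, 321 and 304 FPKM in the NTC libraries and 523, 526 and 510.1 FPKM in the Gli2CA libraries (log2 change 0.77, SE 0.062, adjusted p = 6.38e-05), and Psap, the precursor of the saposins, at 413, 397 and 409.8 FPKM in the NTC libraries and 729, 643 and 671 FPKM in the Gli2CA libraries (log2 change 0.74, SE 0.066, adjusted p = 0.000115). Both were abundant, and their groups were about 200 FPKM or more apart. Sqstm1, the autophagy receptor p62, rose by 0.70, Npc1, which exports cholesterol from the lysosome, by 0.58, and Ctsc, cathepsin C, was the 1 that fell (-0.62). The regulators Tfeb (-0.05) and Mitf (0.02) were not called.

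Stress programmes moved in part. Ddit3, the stress factor CHOP, was at 7.39, 6.05 and 7.74 FPKM in the NTC libraries and 13.6, 16.4 and 14.8 FPKM in the Gli2CA libraries (log2 change 0.98, SE 0.1, adjusted p = 0.000259), and Chac1, Trib3 and Ppp1r15a, which act in the integrated stress response, rose by 0.69, 0.55 and 0.60. The endoplasmic reticulum chaperones Hspa5 (-0.00) and Hsp90b1 (-0.01) were not called, and in all 8 of 25 were higher and 3 lower, with 1 lower without Gli2CA library 1 or 3 and 6 after rescaling. Of 23 NRF2 antioxidant genes 8 were higher and 2 lower, 4 higher in the all-12 fit and 5 after rescaling or without Gli2CA library 1 or 3, with 7 lower after rescaling. Hmox1, heme oxygenase 1, was at 57, 48.8 and 54 FPKM in the NTC libraries and 95.3, 89.7 and 97.8 FPKM in the Gli2CA libraries, with no overlap (log2 change 0.81, SE 0.073, adjusted p = 0.000115), and Srxn1, sulfiredoxin, rose by 0.72, while Nqo1 (-0.28) and Me1 (-0.65), also counted as targets, fell. After rescaling 7 were lower, and without Gli2CA library 2 or 3, 1 was. In the iron list 4 of 19 were higher (21.1%, beside 14.7% of all genes) and 2 lower (10.5%, beside 12.1%). The higher count was 2 after quantile normalisation or without NTC library 1 or Gli2CA library 1 or 3.

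Immediate early and MAPK feedback genes gave 18 higher and 2 lower of 34, with a median of 0.36. Egr1, an early growth response factor, was at 4.82, 3.94 and 4.84 FPKM in the NTC libraries and 12, 10.8 and 11.4 FPKM in the Gli2CA libraries, above 10 FPKM in Gli2CA alone (log2 change 1.17, SE 0.088, adjusted p = 4.58e-05). Dusp5, a nuclear ERK phosphatase, was at 7.1, 6.4 and 6.87 FPKM in the NTC libraries and 15.9, 18 and 16.6 FPKM in the Gli2CA libraries (log2 change 1.19, SE 0.073, adjusted p = 1.74e-05), with 22.1% of its exons shared. Egr3 (0.94), Egr2 (0.89), Phlda1 (0.85) and Spry2 (0.73) rose, whereas Spry1 (-0.92), of the same family as Spry2, and the ETS factor Etv5 (-0.45) fell. Of 19 YAP-TEAD genes 5 were higher and 3 lower, with 2 higher and 5 lower after rescaling and 3 higher without NTC library 1 or Gli2CA library 1. Nt5e, the ectonucleotidase CD73, rose from 8.78 ± 0.465 to 16.6 ± 0.498 FPKM. Of 14 NF-kappaB genes 2 were higher (14.3%, beside 14.7% of all genes) and 3 lower (21.4%, beside 12.1%). The 3 that fell, Nfkbie, Nfkbiz and Nfkbia, encode members of the IkB family. The lower count was 1 in the all-12 fit and without NTC library 1 or any 1 Gli2CA library, and the higher count was 1 without Gli2CA library 1 or 3.

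Among developmental regulators the Notch pathway was split. Hes1, the main Notch target, was at 20.1, 22.3 and 20.8 FPKM in the NTC libraries and 10.5, 11.2 and 11.6 FPKM in the Gli2CA libraries. It fell to about one level in all 3 Gli2CA libraries (log2 change -0.87, SE 0.069, adjusted p = 6.07e-05), and Notch1 fell by 0.31. Notch4, the endothelial receptor, was at 0.674, 0.672 and 0.958 FPKM in the NTC libraries and 2.35, 2.27 and 1.97 FPKM in the Gli2CA libraries and rose (log2 change 0.86, SE 0.1, adjusted p = 0.000588), and 4 of 11 were higher and 3 lower. The higher count was 1 after rescaling or in the all-12 fit and 2 without NTC library 1 or Gli2CA library 2, and the lower count was 1 without NTC library 3 or any 1 Gli2CA library. Osr1, a zinc finger factor of intermediate mesoderm, was at 7.12, 5.81 and 7.14 FPKM in the NTC libraries and 20.3, 20.1 and 21.6 FPKM in the Gli2CA libraries (log2 change 1.50, SE 0.086, adjusted p = 1.28e-05). Tbx18, a T-box factor, was at 1.08, 1.57 and 1.32 FPKM in the NTC libraries and 0.239, 0.234 and 0.248 FPKM in the Gli2CA libraries (log2 change -0.90, SE 0.11, adjusted p = 0.0006), with 20.6% of its exons shared. Both genes separated the groups in full. The forkhead genes Foxl1 (0.61), Foxc2 (0.60) and Foxf1 (0.45), listed as GLI targets, rose from low levels, Foxl1 from 0.598 ± 0.188 to 1.42 ± 0.145 FPKM. Of 15 tested GLI target genes 8 were higher and 3 lower, with a median of 0.36, and the lower ones were Foxm1, Mycn and Sfrp1. Without Gli2CA library 2, 1 was lower, and the higher count was 5 to 8 over the alternatives. Foxl1 was under 1 FPKM in every NTC library and passed the filter only through Gli2CA. The higher count and the median of the list are therefore partly set by the filter. Of 44 patterning factors 10 were higher and 11 lower, with 6 and 5 in the all-12 fit and 5 to 7 lower without any 1 library other than NTC library 2. Of the 38 Hox genes 0 passed the filter and were tested. Of 30 nuclear receptors and clock genes 6 were higher and 1 lower, and 3 were higher in the all-12 fit. The lower count was 4 without NTC library 2, 0 without any other 1 library and 5 after rescaling. Rora (0.53) and Ppard (0.53) led them.

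Some BMP and Wnt genes changed. Bmp2, a BMP ligand, was at 15.6, 15.1 and 14.4 FPKM in the NTC libraries and 42.4, 41.4 and 37.8 FPKM in the Gli2CA libraries, a rise in every library (log2 change 1.37, SE 0.068, adjusted p = 6.61e-06), while the BMP-responsive genes Id3 (-1.40), Id1 (-0.82) and Bambi (-0.96) fell. Id3 was at 38, 35.6 and 41.7 FPKM in the NTC libraries and 11.9, 16 and 14.2 FPKM in the Gli2CA libraries. Of 28 tested genes 8 were higher and 9 lower, with 5 higher in the all-12 fit and 5 lower without Gli2CA library 2 or 3. Wnt7a and Dkk2, a ligand and a secreted inhibitor of Wnt signalling, rose 4.61-fold and 2.83-fold. Lef1, a transcription factor of the pathway, fell from 1.5 ± 0.097 to 0.156 ± 0.0277 FPKM, with 13.7% of its exons shared. Of 24 tested Wnt genes 4 were higher (16.7%, beside 14.7% of all genes) and 5 lower (20.8%, beside 12.1%), and 7 were lower after rescaling.

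Transport and antigen presentation genes included further rises. Fxyd1, a regulator of the sodium pump, was at 0.22, 0.0269 and 0.313 FPKM in the NTC libraries and 3.09, 3.19 and 3.3 FPKM in the Gli2CA libraries (log2 change 1.83, SE 0.11, adjusted p = 1.74e-05), and Aqp5, a water channel, at 33.1, 25.1 and 36.3 FPKM in the NTC libraries and 55.2, 67.7 and 61.9 FPKM in the Gli2CA libraries (log2 change 0.96, SE 0.13, adjusted p = 0.00113). Slc12a2, the NKCC1 cotransporter, fell by 0.63, and of 24 channels and pumps 8 were higher and 2 lower (7 and 6 after rescaling). H2-K1 and H2-D1, the classical MHC class I heavy chains, rose 3.43-fold and 2.21-fold, with reads shared among near-identical family members, and B2m, their partner chain, by 0.44 on the log2 scale. Of 17 tested 8 were higher and 9 not called, with 5 higher in the all-12 fit and 3 lower after rescaling. Interferon-stimulated genes gave 7 higher and 4 lower of 27, and the lower count was 1 or 2 without NTC library 1 or Gli2CA library 2 or 3 and 7 after rescaling. The higher count was 1 to 10 over the alternatives. Members low in NTC, such as Slfn2 and Oas1a, passed the filter only through Gli2CA, so the higher count is partly set by it. Slfn2 was at 0.211, 0.389 and 0.299 FPKM in the NTC libraries and 3.2, 3.85 and 4.02 FPKM in the Gli2CA libraries (log2 change 1.85, SE 0.11, adjusted p = 1.28e-05). Its groups were apart by more than 2.5 FPKM. Prostaglandin genes gave 8 higher and 6 not called of 14, with 5 higher and 4 lower after rescaling, and 5 higher in the all-12 fit or without NTC library 3 or any 1 Gli2CA library, and 1 lower without NTC library 3. Ptgs1 and Pla2g4a, the constitutive cyclooxygenase and a phospholipase that frees arachidonate, rose by 1.02 and 0.73. Complement and coagulation genes gave 3 higher and 3 lower of 8, with Procr (0.95) and Plat (0.93) rising and 1 lower without NTC library 1 or Gli2CA library 1 or 3.

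The falls of at least 2-fold were fewer, and they included genes of melanosome traffic. Rab32 was at 16.8, 17.4 and 16.5 FPKM in the NTC libraries and 4.71, 5.25 and 5.15 FPKM in the Gli2CA libraries and Rab38 at 4.78, 5.86 and 5.01 FPKM in the NTC libraries and 0.873, 1.89 and 1.18 FPKM in the Gli2CA libraries. Both are small GTPases that carry pigment enzymes to melanosomes, and in both every Gli2CA library lay far below NTC (log2 change -1.57, SE 0.068, adjusted p = 3.39e-06 for Rab32, log2 change -1.45, SE 0.16, adjusted p = 0.000318 for Rab38). Gpnmb, a melanosomal glycoprotein, fell from 10.7 ± 0.637 to 5.24 ± 0.284 FPKM. Of 6 tested melanocyte genes 3 were lower and 3 not called, and 15 of the 21 members of that list lay below the filter. Tyr, among those below it, was higher in every Gli2CA library, at the low levels given above. Rab32 is not in the list. Up to 2 members were called higher among the alternatives, and the small fall of Sox10 (-0.21) was lost under 8 of them. Of 23 neural crest and undifferentiated-state genes 10 were higher and 3 lower, with 7 lower after rescaling. Tmem98, a membrane protein, had the largest fall on the log2 scale of the genes named here, at 11.1, 10.7 and 13.2 FPKM in the NTC libraries and 0.882, 0.542 and 0.455 FPKM in the Gli2CA libraries (log2 change -2.97, SE 0.12, adjusted p = 2.64e-06). Shisa2, which holds back FGF and Wnt receptors in the endoplasmic reticulum, was at 15.6, 14.5 and 14.8 FPKM in the NTC libraries and 3.21, 2.9 and 3.31 FPKM in the Gli2CA libraries (log2 change -1.95, SE 0.072, adjusted p = 1.34e-06). Both were far below NTC in all Gli2CA libraries. Sntb1, a syntrophin of the dystrophin complex, fell from 7.22 ± 0.795 to 1.47 ± 0.128 FPKM, Enpp1, a pyrophosphatase that hydrolyses extracellular ATP, from 5.67 ± 0.799 to 1.38 ± 0.0887 FPKM, Cers6, a ceramide synthase, from 3.79 ± 0.154 to 0.782 ± 0.0882 FPKM, and Penk, the enkephalin precursor, from 2.15 ± 0.131 to 0.242 ± 0.0158 FPKM, with 14.3% of its exons shared.

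**Figure D5:**
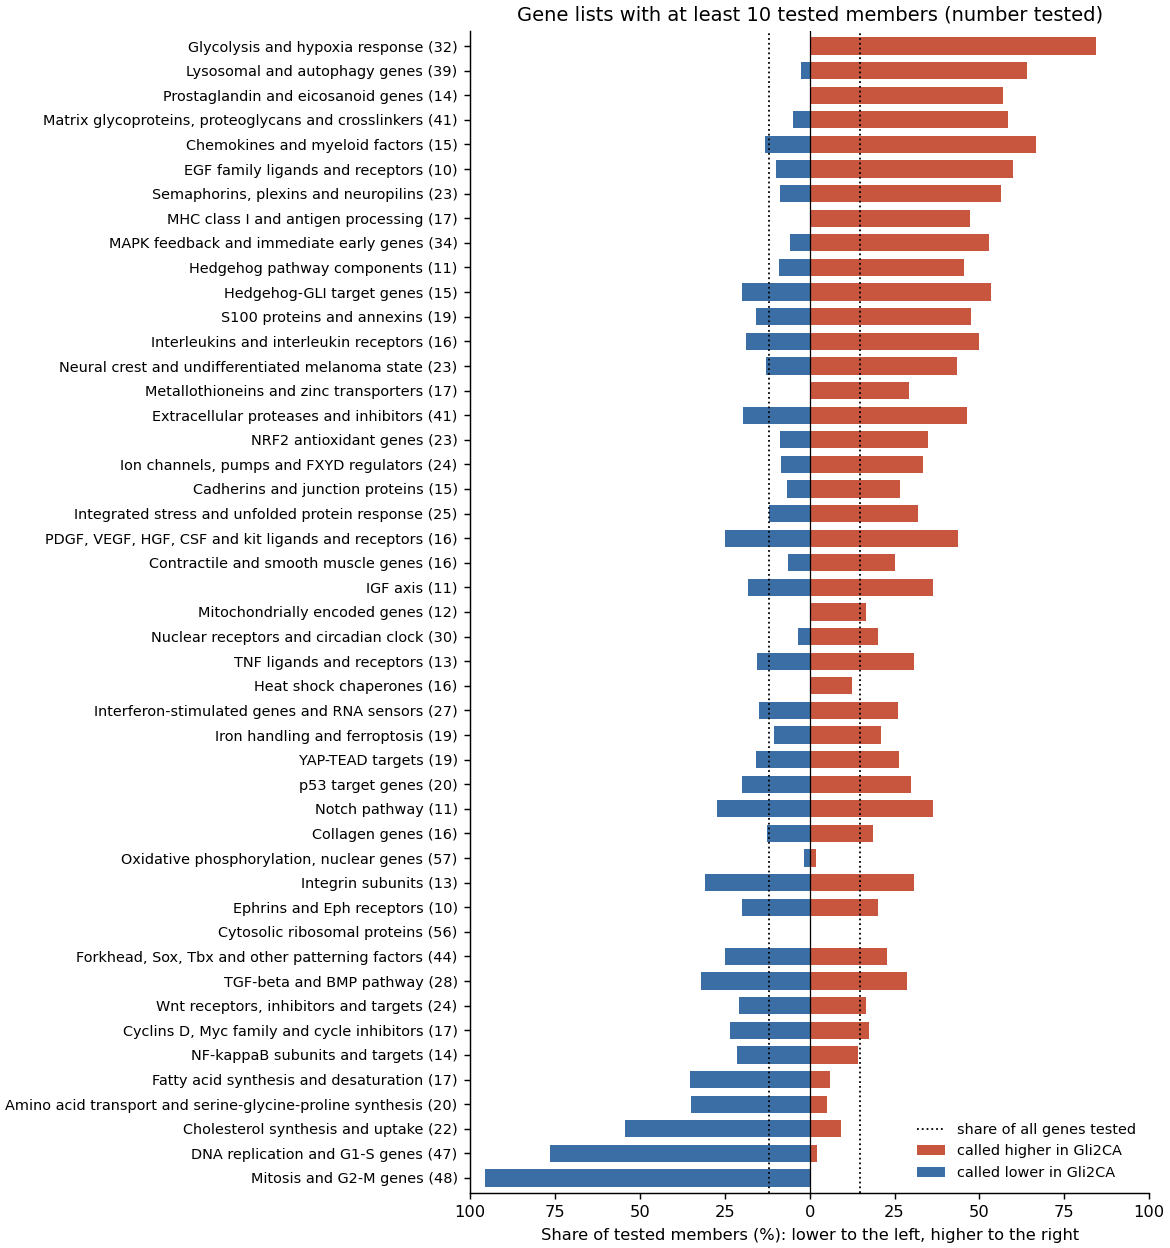
For each list with at least 10 tested members (number in brackets), red bars give the share called higher and blue bars the share called lower, in percent, and dotted lines mark the shares over all genes (14.7% and 12.1%). Glycolysis and lysosome genes have long bars on the higher side, and replication and mitosis genes on the lower side, while ribosomal and oxidative phosphorylation genes have almost no calls.

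The changes were spread over the genome. On chromosomes 1 to 19 and X the median log2 change lay between -0.04 and 0.04. Among these, chromosome 10 had the highest share called higher (20.7% of 517 genes) and chromosome 7 the lowest share called lower (6.86% of 773). The 24 tested mitochondrial genes had a median of 0.16.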

How the data were processed

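Poly(A) RNA of the 6 libraries was sequenced after column purification and library preparation with an NEBNext Ultra II kit, per the labels' protocols. For 54532 Ensembl genes the authors deposited FPKM. Aligner, counter, build, strand setting and scaling: not given in the sources used here. Hence overlapping genes and near-identical copies are uncertain. Symbols, coordinates and exon lengths came from GENCODE M21 (GRCm38), which holds 54495 of the IDs. With those lengths 97.8 to 98.0% of the values of up to 20 reads came out whole within 0.02 of a read, which gave depths of 15972800 to 22832500 reads. Summed gene reads were 1.05 times that total in NTC and 1.12 times in Gli2CA. Floors of 3 reads cover counting error only.

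The test was limma 3.58.1 (R 4.3.3) with a trended prior on log2(FPKM + 1), 2-sided, on the filtered genes of 6 libraries. Log2 changes are on that scale, so those of low genes are understated. Folds divide mean FPKM. A gene was called below 0.05 after Benjamini-Hochberg adjustment. Values after ± are SDs with n = 3. Gli1, Gli2 and Hhip had exact permutation tests. In simulated data with 200 changed genes among 10784, 98% and 100% of those changed by -1 and 1 were recovered, and 80% and 78% of those changed by -0.5 and 0.5, with 8 false calls among 10584. The simulated noise was normal and independent, the groups had the same scale, and far fewer genes changed than were called here. The simulation therefore does not measure errors that come from the scaling of these libraries.

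The 58 gene lists (1691 genes, 2 not matched) are described by counts without a set test. A gene low in one group could pass the filter through the other group alone, and such a member enters its list as changed. The comparison and the lists were chosen with earlier results of these data known. Genes to name were taken by rule, and the text prints part of them. They are Gli1, Gli2, Gli3, Ptch1, Smo, Sufu and Hhip, in each list the 4 called members that changed most (or fewer), the 15 largest rises and falls without overlap, the 8 largest in FPKM each way, and genes at most 0.1 FPKM in one group and at least 1 in the other. Other list members are named after their values were seen, and some items are not reported here. Promoter windows came from RefSeq (GRCm38.p6). Same-numbered libraries did not deviate together (correlations 0.13, 0.00 and -0.08), so the main fit has no pairing. Alternatives were pseudocounts of 0.1 and 5, no filter or 5 FPKM, rescaling to a common total, quantile normalisation, library weights, a robust prior, all 12 libraries in 1 fit, a replicate block, leaving out each library and, added after seeing the data, voom on recovered reads. Python 3.11.15, pandas 2.3.3, numpy 2.4.6 and matplotlib 3.10.9 made tables and plots.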

Additional observations from a re-analysis of the deposited data

How the results depend on the processing

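Against 2894 genes called, a fit of all 12 libraries gave 1606 (925 higher and 681 lower) and library weights 4797 (2491 and 2306). Leaving out 1 library gave 1817 to 3086 calls and 750 to 1353 lower, with 1817 and 750 without Gli2CA library 3 and 867 and 849 lower without Gli2CA libraries 1 and 2. Rescaling to a common total gave 984 higher and 2952 lower, and voom 2504 lower, with the median of all genes at -0.14 and -0.10 and 25.0% and 34.0% of calls higher. Calls higher by at least 2-fold (241) numbered 65 with a pseudocount of 5 and 135 with a filter of 5 FPKM. Calls lower by at least 2-fold (40) numbered 95 and 6 with pseudocounts of 0.1 and 5, 18 with the 5 FPKM filter, 71 after rescaling and 135 with voom. Of the 281 genes called by 2-fold, 272 were called in the same direction in the all-12 fit, 281 after rescaling and 281 with library weights. The replicate numbers do not pair the samples, and a replicate block gave 2740 calls (1540 higher and 1200 lower). The log2 change of Gli1 was 0.88 in limma without the filter, and that of Hhip 0 to 0.0087 on leaving out 1 library. After quantile normalisation Tmsb4x was at -0.045 and Vim at -0.034. The cause of these moves was not tested. Of 231 genes taken by the naming rule and tested, 182 kept call and direction under every alternative that tested them (the 5 FPKM filter tested 171), 49 did not, and 2 of these reversed. The level of Gli2, and folds of genes with under 3 reads in NTC, are limited by depth.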
